A study of Vulpes lagopus with 12 samples.

Results

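The translation initiation factors are described here across 11 arrays of Arctic fox blood and 1 array of a canine control. They were taken by gene symbol: every probe set annotated with a single symbol that begins with EIF and a digit was kept, and the EIF2AK symbols, which name kinases, were left out. This gave 106 probe sets of 44 genes, out of 42924 probe sets and 15115 genes measured. A single probe set stood for 11 of these genes, and the other 33 had several, up to 5. The rule used symbols only, no measured values. The probe annotation held no probe set with the single symbol EIF4A1, EIF4G1 or EIF4EBP3, so the main helicase and the main scaffold of the cap-binding complex are not described.

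Translation initiation brings a ribosome to the start codon of a messenger RNA. The factor eIF2, bound to GTP, delivers the initiator tRNA to the small ribosomal subunit with the help of eIF1, eIF1A, eIF3 and eIF5; eIF4E, eIF4G and eIF4A bind and open the capped 5′ end of the message; eIF5B joins the large subunit, and eIF2B recharges eIF2 with GTP. Cells slow translation mainly by phosphorylating eIF2 or by letting binding proteins hold eIF4E. In whole blood these factors are read from white cells, platelets and young red cells together, and mature mammalian red cells have no nucleus.

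The Arctic fox (Vulpes lagopus) is a wild canid of the far north. The series asked about polychlorinated biphenyls, persistent industrial pollutants, and mercury in blood cells of 11 foxes. The labels used here give no exposure, sex, age, genotype or batch for any fox and do not say that the 11 samples came from 11 animals. All 12 titles carry one and the same date, with no word on what was done then. The foxes therefore form 1 group, numbered 1 to 11 in the order of the series. The canine control was 1 array; its title calls it that, while its labels read blood and Vulpes lagopus as for the foxes. All values are the authors' log2 values, on which a difference of 1 is a doubling, from an Affymetrix array with probes designed on the dog.

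Several facts of the arrays bear on every value below. The median over all probe sets was 7.06 to 7.17 on the fox arrays and 6.85 on the control. Blood markers were mixed. Of 6 measured red cell markers 5 were called lower on the control, among them ALAS2, the first enzyme of heme synthesis in these cells (10.89 to 15.05 in the foxes, 6.57 on the control), and HEMGN was called higher (5.34 to 6.21, and 9.17). Called lower there were 4 of 5 measured neutrophil, 2 of 5 monocyte, 3 of 7 T cell, 4 of 4 B cell, 1 of 4 NK cell and 2 of 4 platelet markers, and 1 T cell marker was called higher. Among all genes, by their highest-mean probe set, 44.5% were called lower on the control and 18.5% higher. The counts for monocyte, T cell, NK cell and platelet markers lay near or under that share of lower calls. Mean levels of monocyte and platelet markers were 9.18 to 10.91 and 7.94 to 10.06 in the foxes, and 8.78 and 6.57 on the control. Those of T cell and NK cell markers were 8.24 to 9.23 and 6.99 to 9.06, and 8.20 and 7.92 on the control. The numbers of such cells were not tested. LYZ of monocytes stood at 13.27 on the control, a high level but below all foxes (13.50 to 15.17). CD3D of T cells stood at 11.12 there, within the range of the foxes (9.79 to 11.67). The mean level of 7 liver markers was 7.11 to 7.68 in the foxes and 13.65 on the control, with 6 of the 7 called higher there. All 4 measured gut markers (6.14 to 6.42 in the foxes, 13.18 on the control) and all 4 measured skeletal muscle markers (6.67 to 7.13, and 11.98) were also called higher on the control. The mean level of 5 neutrophil markers was 10.08 to 12.76 in the foxes and 7.03 on the control. What RNA the control carried beyond its title and labels is not known here, so tissue, species and the fit of the dog probes cannot be told apart in any difference from it. Foxes 9, 10 and 11 stood apart on an array control for RNA: the 3′ minus middle difference of the dog GAPDH control probe sets was 0.42 to 1.08 in them, while foxes 1 to 8 had 2.56 to 3.19 and the control had -0.08. The same difference of the dog actin probe sets was 0.16 to 0.26 in foxes 9, 10 and 11, 2.14 to 5.21 in the others and 2.54 on the control. On a second GAPDH set, a second actin set and EF1a the 2 sets of foxes overlapped (-0.96 to -0.60 and -0.77 to -0.28; 4.40 to 5.11 and 3.84 to 5.78; 3.06 to 3.73 and 2.41 to 3.43).

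The control was compared with the 11 foxes to see which factors lay outside the levels of fox blood. The initiation factors stood higher on the control more often than lower. By limma, a linear model fitted over all probe sets, with a Benjamini-Hochberg adjusted p under 0.05, 34 of the 106 were higher on the control and 19 were lower, while 53 were not called. The higher ones were 32.1% of the members, beside 18.9% of all probe sets tested, and the lower ones were 17.9%, beside 42.1%. The same 18.9% and 42.1% are the background for each count by complex below that uses all 11 foxes. Most of those counts rest on few probe sets. The median control minus fox difference was 0.80 over the members and -0.46 over all probe sets. In each of the 53 called probe sets the control lay outside all 11 foxes, which a call on 1 control array nearly requires. With or without a call, the control lay above all foxes in 39.6% of the members, beside 21.9% of all probe sets. It lay below all foxes in 22.6%, beside 55.1%.

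The sizes differed between the directions. The 34 higher probe sets stood 0.41 to 4.07 above the fox mean, with a median of 2.22; 30 of them were above by at least 1 and 19 by at least 2. The 19 lower ones stood at -0.48 to -1.10, with a median of -0.72, and only those of EIF2B2 and EIF4E1B reached -1. Of all probe sets, 15.5% were called higher by at least 1 and 12.1% lower by at least 1. With each array centred on its own median, the split was 37 higher and 9 lower, beside 21.8% and 23.1% of all probe sets; all 34 higher calls were kept, but only 9 of the 19 lower ones. With quantile normalization applied again, 27 were higher and 20 lower, beside 18.1% and 29.5% of all probe sets, with 27 of the 34 and 15 of the 19 calls kept and a median difference of 0.14 over the members. Without foxes 9, 10 and 11 the counts were 55 higher (51.9%, beside 22.9% of all) and 23 lower (21.7%, beside 49.1%). The fit assumes that the lone control array varies as the foxes do, and the number of arrays limits the precision. In mixed tissue, fewer cells of a type and less RNA per cell cannot be told apart.

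**Figure D1:**
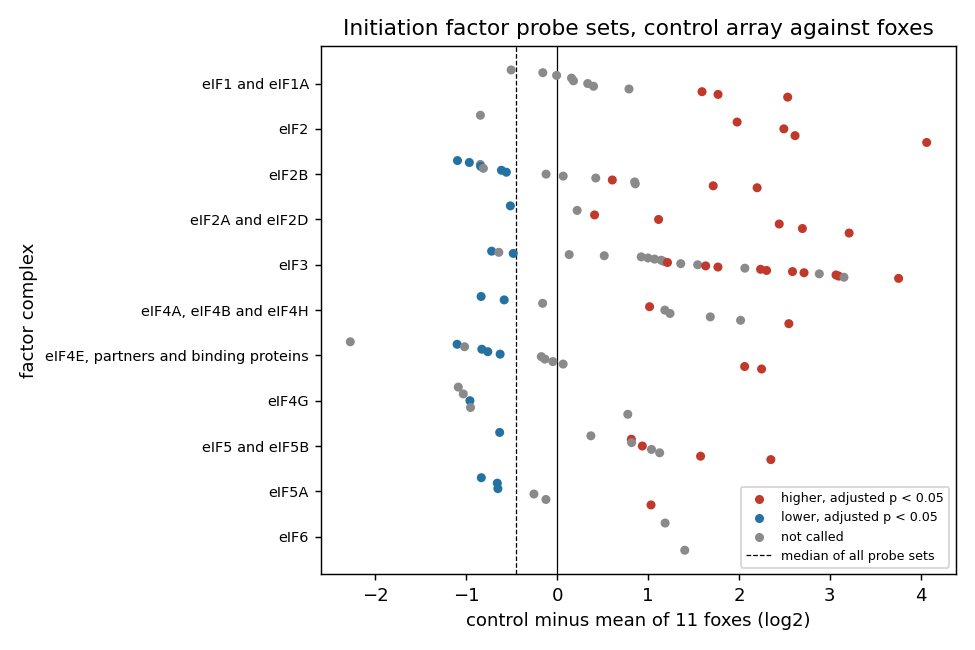
Control minus fox log2 difference (x axis) of each of the 106 probe sets, 1 point per probe set, in rows by factor complex; red points were called higher, blue points lower and grey points not called by limma, and the dashed line is the median over all probe sets, -0.46. In the eIF2 and eIF3 rows most points lie to the right of 0, and in the eIF4G row 4 of 5 lie to the left.

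The eIF2 complex, the carrier of the initiator tRNA, had 4 of its 5 probe sets higher on the control, 0 lower, and a median difference of 2.49. EIF2S1 encodes the alpha subunit, on which the stress kinases act. It stood at 7.74, 8.11 and 9.04 (lowest, median and highest fox) and at 10.87 on the control, a difference of 2.62 (SE 0.49, limma adjusted p = 0.000825). EIF2S2, the beta subunit, stood at 8.57, 9.02 and 9.81 against 11.03, a difference of 1.98 (SE 0.40, limma adjusted p = 0.00138). For both genes the control lay above every fox, and among the foxes 9, 10 and 11 were the highest.

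EIF2S3 encodes the gamma subunit, which binds GTP and the tRNA, and its 3 probe sets did not all give the same picture. On Cfa.10883.1.S1_at the foxes stood at 11.02, 12.12 and 13.29 and the control at 14.62, a difference of 2.49 (SE 0.85, limma adjusted p = 0.0235). On CfaAffx.20766.1.S1_s_at they stood at 7.36, 7.97 and 10.57 and the control at 12.70, a difference of 4.07 (SE 1.13, limma adjusted p = 0.00894), which was the largest of all 106 members. On both, the control was above all foxes, and foxes 9, 10 and 11 were above foxes 1 to 8.

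The third probe set, Cfa.9060.1.A1_at, read 7.0, 7.09, 9.77, 7.04, 6.63, 9.82, 9.58, 10.34, 5.77, 11.31 and 5.74 in foxes 1 to 11 and 7.35 on the control. The values fell into 2 ranges: 6 foxes stood at 5.74 to 7.09 and 5 foxes, numbers 3, 6, 7, 8 and 10, at 9.58 to 11.31, with a gap of 2.49 between them. The control lay in that gap, next to the lower range. Foxes 9, 10 and 11, which lay together on the other 2 probe sets, were split here, with fox 10 the highest of all foxes and foxes 9 and 11 the lowest. The difference of -0.84 (SE 1.88, limma adjusted p = 0.708) was not called. The SD over the foxes, 1.99, was the largest of any member and ranked 28 among the 42924 probe sets.

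**Figure D2:**
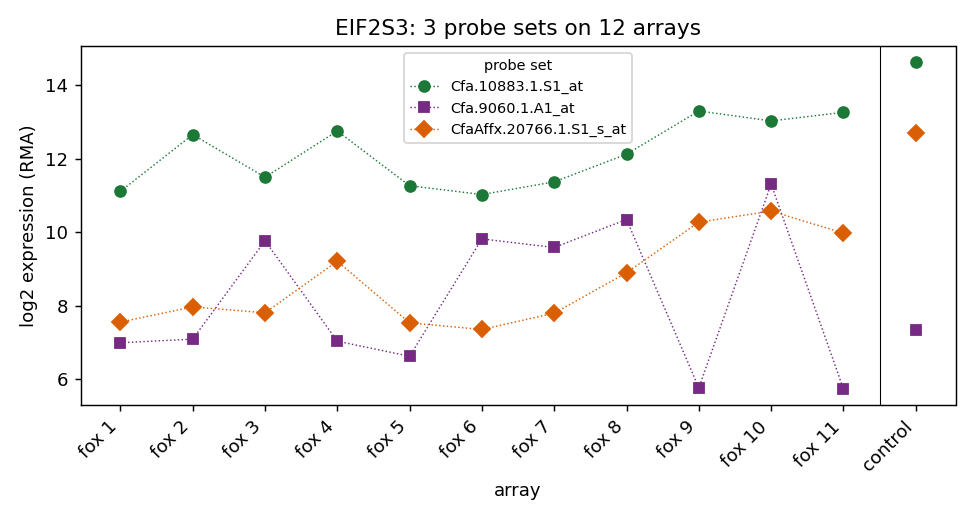
Log2 value (y axis) of the 3 EIF2S3 probe sets on each of the 11 fox arrays and the control (x axis), with 1 marker style per probe set; dotted lines only join points of a probe set. On Cfa.9060.1.A1_at foxes 3, 6, 7, 8 and 10 sit between 9.58 and 11.31 and the other 6 between 5.74 and 7.09, while on the other 2 probe sets the control lies above every fox.

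Across foxes 1 to 8, Cfa.10883.1.S1_at and CfaAffx.20766.1.S1_s_at had a positive correlation (Pearson r 0.806, Spearman rho 0.952; exact two-sided permutation p = 0.023, adjusted 0.139 over the 103 same-gene pairs of all members), which did not pass the adjustment. Cfa.9060.1.A1_at followed neither, with r of -0.246 and 0.0225. Of the probe sets with a gene name, the one whose values over the 11 foxes were most like it was one of OFD1, a centriole and cilium gene (CfaAffx.18295.1.S1_s_at, r 0.865 over 11 foxes and 0.792 over foxes 1 to 8). Close behind over the 11 foxes came probe sets of MYO1C, CCDC141, CDC42BPA and CYBRD1 (r 0.81 to 0.828). Over foxes 1 to 8, MYO1C (r 0.892), CDC42BPA (0.849) and CYBRD1 (0.831) were above OFD1. These genes were looked for after the pattern was seen, and all share the same arrays. EIF2S3 and OFD1 are both placed on the X chromosome in the Arctic fox RefSeq annotation (assembly ASM1834538v1). So is EIF1AX, whose probe sets did not split the foxes into these ranges. On OFD1 no wide gap parted the ranges. Fox 2, of the lower range, stood there at 7.84, and foxes 3 and 7, of the upper one, at 7.91 and 7.97. The chromosomes of MYO1C, CCDC141, CDC42BPA and CYBRD1 are not given here. Mice carry a relative of EIF2S3 on the Y chromosome. The labels give no sex, and its part in the pattern was not tested.

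The 5 subunits of eIF2B, the exchange factor that recharges eIF2 and that phosphorylated eIF2 blocks, were mixed: of 15 probe sets 3 were higher, 5 lower and 7 not called, with a median difference of -0.12. These counts were near the shares of all probe sets, 18.9% higher and 42.1% lower. EIF2B5, the catalytic epsilon subunit, had calls both ways. Its probe set CfaAffx.18906.1.S1_at stood at 5.09, 5.50 and 7.49 against 8.05, a difference of 2.20 (SE 0.83, limma adjusted p = 0.036), and foxes 9, 10 and 11, at 6.85 to 7.49, lay between foxes 1 to 8 and the control. Its other one, Cfa.18822.1.S1_at, stood at 5.20, 5.45 and 5.62 against 4.89, a difference of -0.56 (SE 0.16, limma adjusted p = 0.00884) that was not called with arrays centred (-0.29, adjusted p = 0.141).

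EIF2B3, the gamma subunit, had 4 probe sets. Cfa.453.1.A1_at stood at 7.63, 7.81 and 8.83 against 9.71 and was higher by 1.72 (SE 0.42, limma adjusted p = 0.00459). CfaAffx.7951.1.S1_s_at was higher by 0.61 (SE 0.18, limma adjusted p = 0.0139; 0.44 and adjusted p = 0.0657 with quantile normalization applied again). CfaAffx.7954.1.S1_x_at stood at 7.95, 8.14 and 8.24 against 7.51 and was lower, at -0.61 (SE 0.12, limma adjusted p = 0.0013). In all 3 the control lay outside the foxes. EIF2B2, the beta subunit, had the largest negative difference of the complex: CfaAffx.26011.1.S1_at stood at 7.54, 7.95 and 8.23 against 6.81, a difference of -1.10 (SE 0.21, limma adjusted p = 0.00112). EIF2B1, the alpha subunit, was lower on 2 of its 3 probe sets, at -0.97 and -0.84, and none of the 4 probe sets of EIF2B4, the delta subunit, was called.

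EIF2A and EIF2D can bring a tRNA to the ribosome without eIF2 and are separate from it despite their names. Of their 7 probe sets 5 were higher on the control and 1 lower. All 3 of EIF2A were higher, by 2.70, 2.44 and 0.41, though the smallest (Cfa.20670.1.S1_s_at, limma adjusted p = 0.0399) was not called when fox 1, 3, 4, 8 or 9 was left out (adjusted p 0.0505 to 0.0537). On Cfa.375.1.S1_at the foxes stood at 5.99, 6.30 and 7.17 and the control at 9.07 (SE 0.34, limma adjusted p = 4.78e-05). EIF2D was called both ways. Cfa.2087.1.A1_at stood at 7.20, 7.76 and 8.95 against 11.10, a difference of 3.21 (SE 0.55, limma adjusted p = 0.000461). Its companion Cfa.2087.1.A1_s_at was higher by 1.12 (SE 0.43, limma adjusted p = 0.0378; 0.0503 without fox 3). Cfa.18973.1.S1_s_at stood at 7.94, 8.09 and 8.38 against 7.60, a difference of -0.51 (SE 0.17, limma adjusted p = 0.0202), which was not called with arrays centred (-0.25, adjusted p = 0.202).

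The group of eIF1 and eIF1A, which scan for the start codon and check it, had 3 of 11 probe sets higher and 0 lower, with a median difference of 0.34. EIF1 was the most divided: Cfa.6374.1.A1_s_at stood at 10.72, 11.75 and 12.99 against 14.31, a difference of 2.54 (SE 0.76, limma adjusted p = 0.0125), while its other 4 probe sets were not called. One of these, Cfa.3218.1.A1_s_at, stood at 12.93, 14.46 and 14.94 against 14.40, a difference of 0.18 (SE 0.68, limma adjusted p = 0.828) that became -0.83 (adjusted p = 0.00761) with quantile normalization applied again. EIF1AX, an X-linked eIF1A gene, was higher on 2 of 3 probe sets, by 1.77 (SE 0.47, limma adjusted p = 0.00724) and 1.59 (SE 0.52, limma adjusted p = 0.0186). Neither was called with quantile normalization applied again (adjusted p = 0.0704 and 0.0598). EIF1B and EIF1AD, which carries an eIF1A-type domain but is not an established initiation factor, had no called probe set.

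eIF3, the largest factor, holds the small subunit open and links it to the cap-binding complex. Its 12 genes measured here had 25 probe sets, of which 10 were higher, 2 lower and 13 not called, with a median difference of 1.55. Without foxes 9, 10 and 11, 19 were higher and 3 lower, beside 22.9% and 49.1% of all probe sets. EIF3L had the largest difference of the complex: Cfa.3930.1.A1_at stood at 8.72, 9.27 and 9.95 against 13.04, a difference of 3.76 (SE 0.39, limma adjusted p = 6.64e-06). Its other probe set was also higher, by 3.10 (SE 1.01, limma adjusted p = 0.0193). The foxes lay close together on the first, and the control lay far above them. On the second, foxes 9, 10 and 11 (10.39 to 11.05) lay between foxes 1 to 8 (8.12 to 8.92) and the control (12.23).

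EIF3A, the core subunit on which the complex is built, stood at 9.28, 9.98 and 11.12 against 12.68 on Cfa.16750.1.S1_at, a difference of 2.72 (SE 0.51, limma adjusted p = 0.000912). Its other probe set was higher by 1.63 (SE 0.49, limma adjusted p = 0.0133), a call lost with quantile normalization applied again (0.97, adjusted p = 0.0631). EIF3E was also higher on both of its probe sets, by 2.30 and 1.77, and EIF3M on its only one, by 2.59 (SE 0.76, limma adjusted p = 0.0118). EIF3J, which helps eIF3 bind the small subunit, was higher on 1 of 2, by 1.21 (limma adjusted p = 0.0357; 0.50 and adjusted p = 0.299 with quantile normalization applied again).

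EIF3I, a core subunit that folds into a propeller of WD repeats, was called both ways. Cfa.1036.1.S1_at stood at 8.58, 9.42 and 9.79 against 12.41, a difference of 3.07 (SE 0.40, limma adjusted p = 5.23e-05). CfaAffx.16721.1.S1_s_at was higher by 2.24 (SE 0.91, limma adjusted p = 0.049), a call lost when any 1 of foxes 1 to 8 was left out (adjusted p 0.0605 to 0.0647). Cfa.8285.1.A1_at stood at 4.57, 4.72 and 5.01 against 4.27, a difference of -0.48 (SE 0.15, limma adjusted p = 0.0163), not called with arrays centred (-0.21, adjusted p = 0.255). The other lower call was EIF3B, the scaffold that binds EIF3I, on Cfa.19413.1.S1_s_at, which stood at 6.14, 6.48 and 6.73 against 5.76, a difference of -0.72 (SE 0.20, limma adjusted p = 0.00806; -0.45 and adjusted p = 0.0587 with arrays centred).

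Other eIF3 subunits were spread widely between the foxes, and their probe sets below were not called. EIF3F, a subunit with an MPN domain, stood on CfaAffx.11227.1.S1_at at 5.04 to 7.68 in foxes 1 to 8, at 9.80 to 10.71 in foxes 9, 10 and 11, and at 9.06 on the control; the SD over the foxes was 1.95 and the difference 1.55 (SE 1.84, limma adjusted p = 0.474). On Cfa.5123.1.A1_s_at it stood at 9.64 to 11.60, 13.60 to 13.80 and 12.29, with an SD of 1.62. In both the control lay between the 2 sets of foxes. EIF3D, which can bind the cap itself, stood at 6.75 to 8.58 in foxes 1 to 8, 10.37 to 10.98 in foxes 9, 10 and 11 (control 11.25, above all foxes; difference 2.88, SE 1.49, limma adjusted p = 0.109). EIF3H, the other subunit with an MPN domain, had the control above all foxes on both probe sets, with differences of 3.16 and 2.07 that were not called (limma adjusted p = 0.0631 and 0.066) but were when fox 9, 10 or 11 was left out (adjusted p 0.0352 to 0.0479).

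EIF3G, which binds RNA, differed from these in that foxes 1 to 8 were themselves far apart. On CfaAffx.27415.1.S1_s_at they stood at 8.75 to 12.35, foxes 9, 10 and 11 at 11.93 to 13.33, and the control at 11.88; the SD was 1.72 over all foxes and 1.38 within foxes 1 to 8. Here the ranges of the 2 sets of foxes overlapped, and the control lay inside the range of the foxes.

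**Figure D3:**
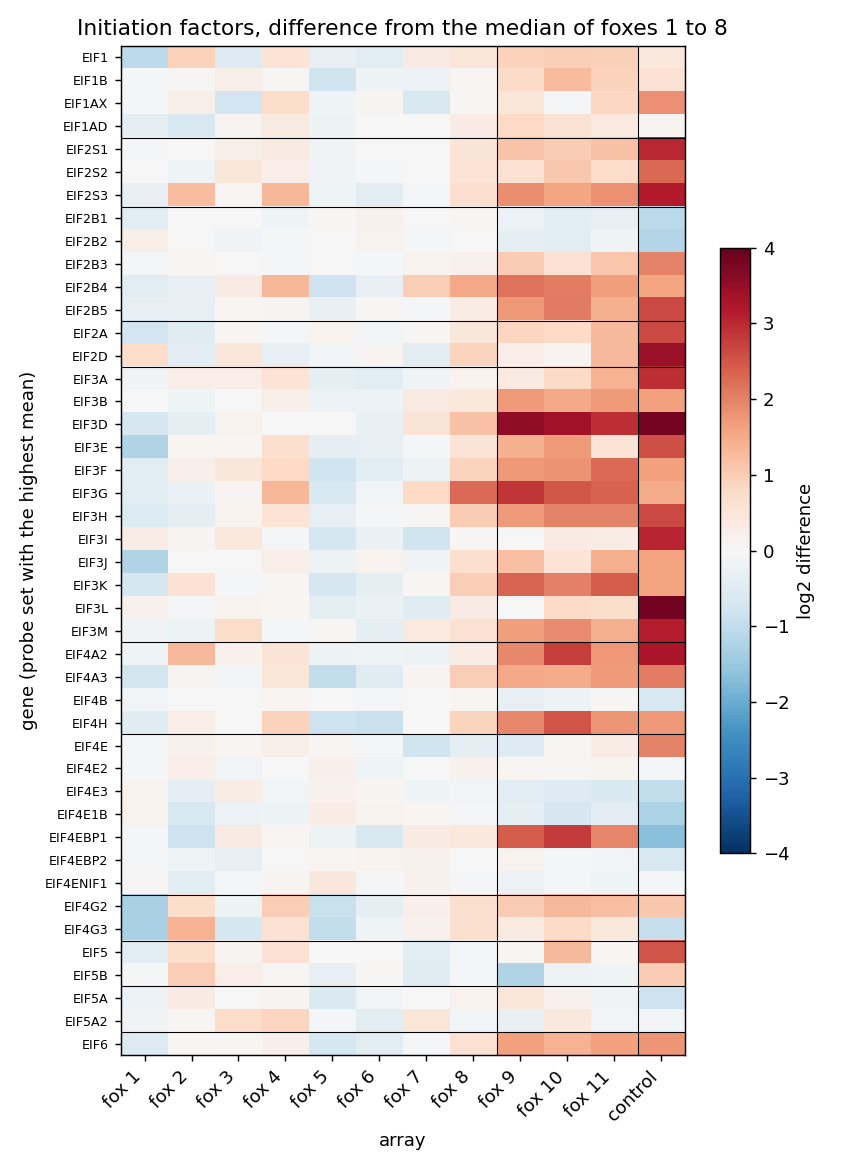
Difference of each gene's highest-mean probe set from its median over foxes 1 to 8, in log2 units by colour, with genes in rows and arrays in columns; horizontal lines part the complexes and vertical lines set off foxes 9, 10 and 11 and the control. Many eIF3 rows are red in these foxes and on the control, while EIF4EBP1 is red in these foxes (12.04 to 12.87) and blue on the control (8.40).

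The helicase eIF4A and its helpers eIF4B and eIF4H unwind the 5′ end of the message. Of 9 probe sets 2 were higher, 2 lower and 5 not called. Without foxes 9, 10 and 11, 6 were higher and 2 lower, beside 22.9% and 49.1% of all probe sets. EIF4A2, the second eIF4A, stood at 10.68, 11.18 and 13.64 against 14.15, a difference of 2.55 (SE 0.98, limma adjusted p = 0.0388) that was not called without fox 3, 4 or 8 (adjusted p 0.0511 to 0.0522). EIF4H was called both ways from 2 probe sets of nearly the same name: CfaAffx.18668.1.S1_s_at stood at 6.96, 7.30 and 7.64 against 8.26, a difference of 1.02 (SE 0.21, limma adjusted p = 0.00182). CfaAffx.18668.1.S1_at stood at 5.49, 5.67 and 5.93 against 4.84, a difference of -0.84 (SE 0.17, limma adjusted p = 0.00128). The other lower call was EIF4B, at -0.58 on 1 of its 3 probe sets (limma adjusted p = 0.00546; -0.31 and 0.0795 with arrays centred). EIF4A3, a helicase of the exon junction complex rather than of initiation, stood at 5.25 to 6.71 in foxes 1 to 8, 8.93 to 9.61 in foxes 9, 10 and 11, and 8.82 on the control on CfaAffx.9378.1.S1_at (SD 1.62; difference 2.02, SE 1.53, limma adjusted p = 0.262).

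EIF4E, the protein that holds the cap, was higher on both of its probe sets. Cfa.1719.1.S1_at stood at 7.39, 8.23 and 8.50 against 10.18, a difference of 2.06 (SE 0.33, limma adjusted p = 0.00031). Cfa.21296.1.S1_s_at stood at 6.33, 6.53 and 7.34 against 8.92, a difference of 2.25 (SE 0.34, limma adjusted p = 0.000185). The other genes of the group were called lower or not called. Over the 12 probe sets of EIF4E, its relatives and its binding proteins, 2 were higher, both of them EIF4E, and 4 lower. Counts of this size were near the shares of all probe sets, 18.9% higher and 42.1% lower. EIF4E1B, a form known from egg cells, stood at 7.24, 7.70 and 8.22 against 6.63, a difference of -1.10 (SE 0.32, limma adjusted p = 0.0119; -0.85 and adjusted p = 0.064 with quantile normalization applied again). EIF4E3, another relative, stood at -0.83 (SE 0.30, limma adjusted p = 0.0307) and was not called with quantile normalization or centring (adjusted p = 0.148 and 0.136). EIF4E2 and EIF4ENIF1, which carries EIF4E into the nucleus, had no called probe set.

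The binding proteins EIF4EBP1 and EIF4EBP2 hold EIF4E away from the scaffold until mTORC1 phosphorylates them. EIF4EBP2 was lower on both of its probe sets, at -0.63 (SE 0.17, limma adjusted p = 0.00811) and -0.76 (SE 0.15, limma adjusted p = 0.00112); the first was not called with quantile normalization or centring (adjusted p = 0.113 and 0.0873). In EIF4EBP1 foxes 9, 10 and 11 and the control lay on opposite sides of foxes 1 to 8. On Cfa.11962.1.A1_at foxes 1 to 8 stood at 9.23 to 10.49, foxes 9, 10 and 11 at 12.04 to 12.87, and the control, at 8.40, below all foxes. The difference of -2.28 (SE 1.17, limma adjusted p = 0.106) was not called. It was called with quantile normalization applied again (-2.46, adjusted p = 0.017) and without foxes 9, 10 and 11 (-1.60, adjusted p = 0.0072). On its other probe set, CfaAffx.10222.1.S1_at, foxes 1 to 8 stood at 5.12 to 5.99, foxes 9, 10 and 11 at 8.08 to 9.33, and the control at 5.32, among foxes 1 to 8 (difference -1.02, SE 1.49, limma adjusted p = 0.565).

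The eIF4G scaffold proteins measured were EIF4G2, which lacks the site for EIF4E, and EIF4G3. Of their 5 probe sets 0 were higher and 1 lower, with a median difference of -0.96. The 4 probe sets of EIF4G3 had differences of -0.95 to -1.09. One was called: Cfa.10659.2.A1_s_at stood at 7.89, 8.01 and 8.64 against 7.16 (difference -0.96, SE 0.23, limma adjusted p = 0.00424). With quantile normalization applied again 3 were called. The call for Cfa.1317.1.A1_at (-0.95, limma adjusted p = 0.0998) also appeared without fox 1 (-1.05, adjusted p = 0.0311). EIF4G2 stood at 12.47, 14.42 and 15.08 against 14.85, inside the foxes (difference 0.78, SE 0.83, limma adjusted p = 0.428).

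EIF5, which makes eIF2 split its GTP at the start codon, and EIF5B, which joins the subunits, had 4 of 9 probe sets higher and 1 lower. For EIF5, Cfa.21330.1.S1_at stood at 9.55, 10.08 and 11.29 against 12.53, a difference of 2.35 (SE 0.49, limma adjusted p = 0.00173), and CfaAffx.27905.1.S1_s_at was higher by 0.82 (SE 0.16, limma adjusted p = 0.00111). EIF5B was called both ways. Cfa.15073.1.A1_at stood at 8.58, 8.91 and 9.72 against 10.51, a difference of 1.58 (SE 0.33, limma adjusted p = 0.00191), and CfaAffx.4292.1.S1_at was higher by 0.94 (SE 0.17, limma adjusted p = 0.000657). CfaAffx.4294.1.S1_at stood at 5.59, 5.81 and 6.04 against 5.17, a difference of -0.63 (SE 0.17, limma adjusted p = 0.00648; -0.36 and adjusted p = 0.0692 with arrays centred). EIF5B was also a gene in which foxes 9, 10 and 11 were the lowest of the foxes on that last probe set.

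EIF5A carries hypusine, a modified lysine, and acts mainly in elongation and termination. Its probe sets Cfa.8657.1.A1_at (11.40, 11.98 and 12.45 against 11.15) and CfaAffx.24750.1.S1_at (8.82, 9.11 and 9.56 against 8.50) were lower on the control, at -0.83 (SE 0.28, limma adjusted p = 0.0225) and -0.65 (SE 0.24, limma adjusted p = 0.0319). Neither was called with arrays centred (adjusted p = 0.119 and 0.218) or with the trend and robust settings of limma (adjusted p = 0.135 and 0.0542). The remaining one, Cfa.8657.1.A1_s_at, stood at 5.50 to 6.28 in foxes 1 to 8 and at 7.67 to 8.43 in foxes 9, 10 and 11, with the control at 6.39 (difference -0.12, limma adjusted p = 0.925). EIF5A2, its close relative, was higher by 1.03 on Cfa.13970.1.S1_at (4.47, 4.96 and 5.62 against 6.09; SE 0.39, limma adjusted p = 0.0365) and lower, at -0.66, on CfaAffx.23010.1.S1_s_at (5.38, 5.56 and 5.78 against 4.93; SE 0.15, limma adjusted p = 0.00257).

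EIF6, which keeps the large subunit apart until it is ready, had no call. Cfa.1140.1.A1_at stood at 10.79, 11.56 and 13.13 against 13.24 (difference 1.40, SE 0.81, limma adjusted p = 0.148), and CfaAffx.12810.1.S1_s_at at 8.07, 8.50 and 10.77 against 10.15 (difference 1.19, SE 0.90, limma adjusted p = 0.264). On both, foxes 9, 10 and 11 were above foxes 1 to 8 and near the control. Without these foxes both probe sets were called higher, as were 22.9% of all probe sets.

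Since 33 genes had several probe sets, the array measured many factors more than once, and the measurements often parted. Within a gene the control minus fox differences spanned 1.26 at the median, and most for EIF2S3 (4.91), EIF2D (3.73) and EIF3I (3.71). In 7 genes probe sets were called in opposite directions: EIF2B3, EIF2B5, EIF2D, EIF3I, EIF4H, EIF5B and EIF5A2. With arrays centred this held in 4 genes, 3 of them the same (EIF2B3, EIF4H and EIF5A2), and with quantile normalization applied again in 7, of which 6 were the same. In 15 genes all probe sets had the same call: all higher for EIF2A, EIF3A, EIF3E, EIF3L and EIF4E, all lower for EIF4EBP2, and none called for 9. How often probe sets part in this way over all genes with several was not counted. These counts therefore do not show a trait particular to the initiation factors.

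The same question was put to the foxes alone. Over foxes 1 to 8 the 103 same-gene pairs of probe sets had a median Pearson r of 0.311, with r above 0 in 73. By exact two-sided permutation over pairings, 22 pairs had an unadjusted p under 0.05, and 6 passed the adjustment over the 103 pairs. These were positive pairs of EIF3G (r 0.982), EIF3H (0.934), EIF1 (0.934), EIF3J (0.922) and EIF4G3 (0.91), and a negative pair of EIF5A (-0.918, Cfa.8657.1.A1_at against CfaAffx.24750.1.S1_at). These 2 probe sets of EIF5A were both lower on the control, yet ran opposite ways between these foxes as deposited; their r was -0.476 without the 2 foxes farthest from the median and turned to 0.512 with quantile normalization applied again. With Spearman's rho, without the 2 foxes farthest from the median, or with quantile normalization applied again, 0 pairs passed the adjustment, with 18, 11 and 15 pairs at an unadjusted p under 0.05. With the 2 foxes left out, exact permutation over so few foxes can hardly reach a p that passes. That 0 therefore cannot show whether the pairs held. The positive pairs named above kept an r of 0.609 to 0.94 without those 2 foxes.

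**Figure D4:**
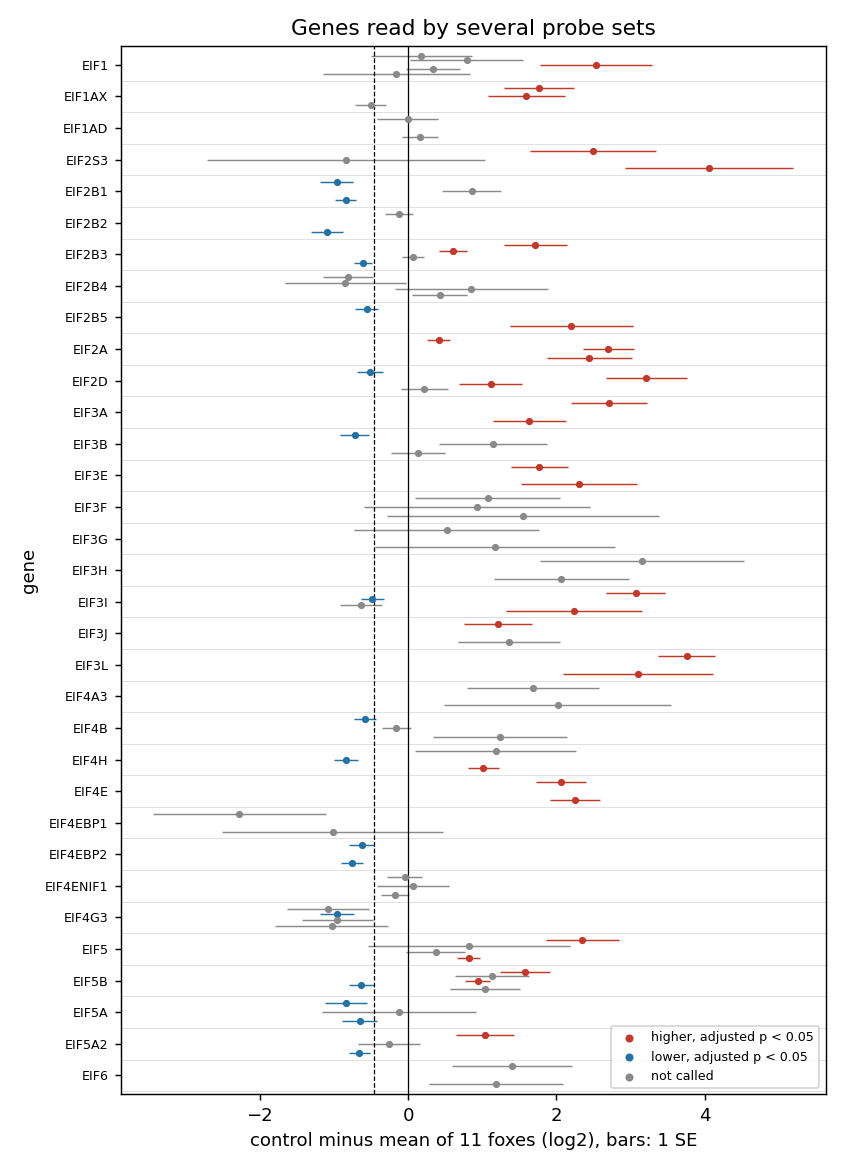
Control minus fox log2 difference (x axis) of every probe set of the 33 genes with several probe sets, 1 point per probe set with its SE as the bar, coloured by limma call, and the median over all probe sets as the dashed line. EIF2S3 spans the widest range, 4.91, and the 7 genes with opposite calls have red points right of 0 and blue points left of it.

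The spread between foxes was wide in many of these factors. The SD over the 11 foxes was at least 0.5 in 49 members, 46.2% beside 14.8% of all probe sets, and its median was 0.46 beside 0.22. Within foxes 1 to 8 it was at least 0.5 in 28 members, 26.4% beside 7.0%, and the median was 0.29 beside 0.18. Of the 3 eIF2 genes, 5 eIF2B genes and 12 eIF3 genes, the highest-mean probe set reached an SD of 0.5 in 2, 2 and 10. By the same rule it did so in 27 of the 44 member genes. The share over all genes by this rule was not counted, and the 14.8% is over all probe sets.

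**Figure D5:**
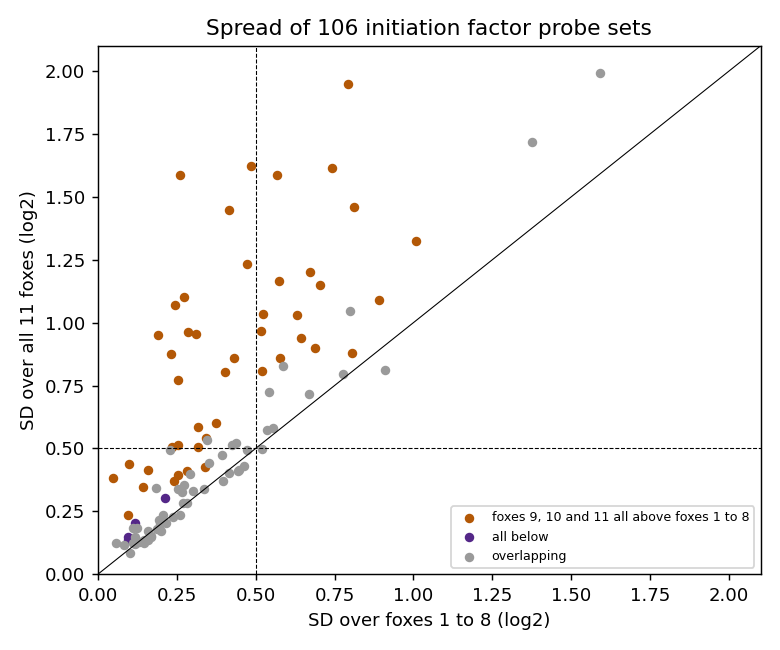
SD of each member probe set over all 11 foxes (y axis) against its SD over foxes 1 to 8 (x axis), in log2 units, with the diagonal as equal SDs and dashed lines at 0.5; colours give whether foxes 9, 10 and 11 all lay above, all below or overlapped foxes 1 to 8. The 45 members with these foxes above lie over the diagonal, while EIF2S3 (1.99 over all foxes, 1.59 over foxes 1 to 8) overlaps and is the point farthest right.

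Much of that spread lay between foxes 9, 10 and 11 and the rest. All 3 stood above foxes 1 to 8 in 45 members, 42.5% beside 12.6% of all probe sets, and below them in 4, 3.77% beside 14.6%. Of the 45, 15 were called higher on the control and 30 were not called. The eIF3 complex, with 25 of the 106 member probe sets, held 15 of the 45. The levels of other genes moved with this set of foxes: the mean level of 5 monocyte markers was 10.61 to 10.91 in foxes 9, 10 and 11 and 9.18 to 9.86 in foxes 1 to 8, and that of 7 T cell markers 8.98 to 9.23 and 8.24 to 8.62. For 4 NK cell markers it was 8.20 to 9.06 and 6.99 to 7.70, and for 4 platelet markers 9.65 to 10.06 and 7.94 to 9.43. Single markers differed: foxes 9, 10 and 11 were all above in 4 of 5 monocyte, 3 of 7 T cell, 3 of 4 NK cell and 2 of 4 platelet markers. Genes that mark no cell type parted too, as 11 elongation and termination genes did (10.20 to 10.27 and 8.71 to 9.50). Those of 9 mitochondrial translation factors overlapped (8.34 to 8.56 and 8.10 to 8.38). The ranges overlapped for the neutrophil (11.31 to 12.76 and 10.08 to 11.89), red cell (8.41 to 8.69 and 7.91 to 8.95) and B cell markers (6.46 to 6.71 and 6.68 to 6.95). The part of these cell types, or of the GAPDH control, in the members' values was not tested. With quantile normalization applied again, 29 members stood above and 8 below.

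Among foxes 1 to 8, fox 8 was the highest in 36 members, 34.0% beside 11.2% of all probe sets, and fox 4 in 16, 15.1% beside 10.2%. The lowest was most often fox 1, in 31 members (29.2% beside 18.2%), and then fox 5, in 21 (19.8% beside 11.3%). Fox 2, the highest of these foxes in 26.4% of all probe sets, was so in 18 members, 17.0%. Probe sets of 1 gene and genes on 1 array are not independent, and no test was made of these counts.

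The genes that act on the initiation factors, or after them, were counted from lists by role, and a gene with several probe sets was read from its brightest one on average. Of 9 eIF2 kinase and phosphatase genes 2 were higher on the control, 1 lower and 6 not called. EIF2AK4, the kinase that senses uncharged tRNA, was higher by 3.77 (SE 0.37, limma adjusted p = 3.6e-06), and EIF2AK1, the heme-regulated kinase, by 0.86 (SE 0.20, limma adjusted p = 0.00355). PPP1R15A, which directs a phosphatase to eIF2, was lower, at -2.15 (SE 0.52, limma adjusted p = 0.00412). Of 10 genes of the ATF4 branch, which phosphorylated eIF2 turns on, 3 were higher and 4 lower. PSAT1 and PHGDH, of serine synthesis, and ASNS, which makes asparagine, were higher by 3.15, 1.66 and 2.18, while the stress factor ATF3 was lower, at -1.17.

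Of 14 genes of mTORC1 and the kinases that act on the cap complex 2 were higher, 4 lower and 8 not called. PDCD4, which blocks eIF4A, was higher by 2.08 (limma adjusted p = 0.00533; 0.94 and adjusted p = 0.08 with quantile normalization applied again) and MTOR, the kinase itself, by 1.06. MKNK1 and MKNK2, which phosphorylate EIF4E, were lower, at -1.14 and -1.23; with arrays centred MKNK1 was not called (-0.87, limma adjusted p = 0.0512). Of 12 measured genes for poly(A)-binding and helper proteins 6 were higher and 0 lower. The largest differences were those of DHX29, a helicase of scanning (3.61), CYFIP1, which binds EIF4E (3.27), DENR, a partner in reinitiation (2.62), and PAIP2B, an inhibitor of poly(A)-binding protein (2.21).

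Later steps gave further counts. Of 11 elongation and termination genes 5 were higher and 2 lower, among them EEF1A1, the carrier of aminoacyl tRNA, at 4.20, EEF1E1 at 3.84, and EEF2K, the kinase that halts elongation, at -1.10. Of 9 mitochondrial translation factors 5 were higher and 1 lower: TSFM, TUFM and MTIF2 were higher by 2.72, 2.33 and 2.18, and GFM1 was lower, at -1.10. With quantile normalization applied again the first 3 were still called, with TSFM at 1.70 and MTIF2 at 1.17. Of the 2 enzymes that make hypusine on EIF5A, DOHH was lower, at -0.98 (SE 0.20, limma adjusted p = 0.00168), and DHPS was not called. The background for these counts is the share of genes by their highest-mean probe set, 18.5% higher and 44.5% lower.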

How the data were processed

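RNA was measured on 12 Affymetrix Canine Genome arrays, 11 of fox blood and the canine control, whose labels also read blood. The submitters' processing notes name RMA and Affymetrix Expression Console, and the deposited values are log2 values. Their versions, and whether the 12 arrays went through RMA as one set, were not given in the sources used here. No detection call came with the values, so low values have no floor. After leaving out 111 Affymetrix control probe sets, 42924 were tested by limma 3.58.1 (lmFit and eBayes, R 4.3.3), control against foxes, with Benjamini-Hochberg adjustment over all of them and a threshold of 0.05. Where samples are not separate animals, p-values measure only the spread between samples. Members, lists and tests were chosen with earlier results of these data known. Of 44 symbols, 44 stood in the Arctic fox RefSeq annotation; 2 probe sets that carry EIF4E2 among several symbols were not used. Probe and protein sequences were not used here.

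Full values were given for every EIF2S3 probe set, the largest called difference in each direction per complex, the members with the largest SD, genes with opposite calls, and EIF2S1, EIF3A, EIF4E, EIF4EBP1, EIF5A and EIF6. From each list up to 4 called genes were named. Same-gene correlations used foxes 1 to 8, since the others stand apart on the GAPDH control, with exact permutation over pairings in scipy 1.17.1. The fit was tested on simulated data. Alternatives were probe sets above the median level, quantile normalization again, centring, trend and robust limma, a minimum absolute difference of 1, a control value outside all foxes, 1 probe set or the mean per gene, and leaving out foxes. Quantile normalization, filtering and centring of the counts for foxes 9, 10 and 11, the median relative to all probe sets, and the search for genes like EIF2S3 were chosen after seeing the data.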

Additional observations from a re-analysis of the deposited data

How the results depend on the processing

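The number called higher on the control was 16 with the highest-mean probe set per gene and 14 with the mean of a gene's probe sets, both out of 44 genes, and 55 without foxes 9, 10 and 11. The number lower on the control was 10 with low values left out (76 members) and 9 with arrays centred on their medians. It was 7 and 5 out of 44 genes with the highest-mean and the mean probe set. Where a minimum size of 1 was also asked it was 2, beside 12.1% of all probe sets. The median difference was 0.14 with quantile normalization applied again and 1.26 relative to the median over all probe sets. Members with a fox SD of at least 0.5 numbered 28 without foxes 9, 10 and 11, and 20 had an SD of at least 1. The number of positive same-gene pairs past the adjustment was 0 with Spearman's rho. It was 0 without the 2 foxes farthest from the median, where too few foxes remain for a pair to pass readily. With quantile normalization applied again it was 0 as well. With that normalization, foxes 9, 10 and 11 stood above the others in 29 members and below in 8; with low values left out they stood below in 2. The cause of these changes was not tested, except that fewer features enter with 1 value per gene or low values left out, and a minimum size is a stricter rule.

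With each fox left out in turn, 30 to 38 members were higher, 19 to 20 lower, 47 to 52 had an SD of at least 0.5, and the median difference was 0.68 to 0.89. Of 71 probe sets whose difference was followed, 4 changed sign with quantile normalization applied again: EIF1 Cfa.3218.1.A1_s_at (-0.83), EIF3F Cfa.5123.1.A1_s_at (-0.054), EIF4G2 (-0.12) and EIF5A Cfa.8657.1.A1_s_at (0.20). The last also changed sign with arrays centred (0.14), without foxes 9, 10 and 11 (0.50), and with single foxes left out, where it ranged from -0.22 to 0.069. It was not called in any of these; of the 4, EIF1 alone was called. Among the 71, 11 lost their call with quantile normalization and 10 with centring, while 4, EIF1 among them, and 0 gained one.

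No paired analysis was possible because the labels give no replicate numbers shared by the foxes and the control, which was 1 array. With 1 control array the differences have no replicate check on its side, and probe sets near the lower end of the scale had no detection call, so their levels could not be set against background.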
